A study of Homo sapiens with 6 samples.

Results

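RNF138, LYPLA1, ABHD8, TMEM238 and KRTAP2-3 are 5 of the 58735 genes counted in HCT116 cells that overexpressed SETD8 and in HCT116 cells with an empty vector. They were chosen by their read counts, which were clearly higher with SETD8 in these same 6 libraries. Their differences between the groups are therefore given as a description, without a test, and support nothing by themselves. The rule named the genes and gave no numeric threshold. All 5 passed the filter on low counts, which kept 14370 genes. They lie on chromosomes 18, 8, 19, 19 and 17.

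HCT116 is an established human colorectal carcinoma line, and SETD8, whose gene now has the symbol KMT5A, is a lysine methyltransferase that acts on histone H4 and on other proteins. The 3 SETD8 libraries came from HCT116 cells given a lentiviral SETD8 overexpression plasmid, and the 3 vector libraries from HCT116 cells of the genotype WT given the lentiviral Vector. Both groups were selected with puromycin as stable clones, while the design text of the series speaks of transfection. The sources used here give neither the number of clones behind each group nor the promoter that drove SETD8. The series is titled for SETD8 methylating the coactivator YAP, and the groups were set side by side to find transcripts that change with SETD8.

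RNF138 is a ubiquitin ligase of the RING-UIM family that is recruited to broken DNA, where it ubiquitylates CtIP (RBBP8) and Ku80 (XRCC5) and favours resection of the DNA ends before homologous recombination. LYPLA1, also called acyl protein thioesterase APT1, removes palmitate from cytosolic proteins, the reverse of the step that ZDHHC palmitoyltransferases catalyse. ABHD8 belongs to the alpha/beta hydrolase domain family, whose fold LYPLA1 also has, and TMEM238 is a small membrane protein. KRTAP2-3 is a cysteine-rich keratin-associated protein of the hair cortex, where such proteins cross-link hair keratins, and its gene stands in a cluster of copies that share stretches of identical sequence with it.

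The libraries held 17056672 to 20471843 counts. A level is given below as CPM, the count scaled to library size with TMM normalisation. A gene with 0 counts in a library could still have had up to 3, a limit that covers counting error only. The libraries of the vector group were more spread than those of the SETD8 group, with a median coefficient of variation (CV) over tested genes of 8.59% in SETD8 libraries and 12.9% in vector libraries. Vector replicate 1 stood apart from the other vector libraries. Along the main axis of a principal component analysis (46.4% of the variance) the SETD8 libraries lay at -23.7, -16.5 and -23.8. Vector replicates 1, 2 and 3 lay at -0.939, 25.7 and 39.3, so the differences of the 5 genes are also given without vector replicate 1. That removes the vector library nearest the SETD8 libraries along this axis, a choice made from these same data. In that fit edgeR called 1771 genes higher and 1738 lower, against 443 and 682 with all libraries. Calls without vector replicate 1 are therefore given as a description and support nothing by themselves. Mitochondrial transcripts took 4.91% to 5.36% of counts in SETD8 libraries and 5.95% to 7.77% in vector libraries. KMT5A itself averaged 69.0 ± 5.63 CPM in SETD8 libraries and 49.1 ± 4.27 CPM in vector libraries (SD, n = 3 each). The log2 fold change of KMT5A was thus 0.49, with an SE of 0.10 and an edgeR adjusted p of 0.0156. The call was lost without any 1 of the SETD8 libraries and without vector replicate 2. Epithelial markers summed to 11919 to 13402 CPM in SETD8 libraries and 11195 to 13835 CPM in vector libraries, while CEACAM5 and VIL1 were at or near 0 in both groups. Of 9 tested epithelial markers, CLDN4 and CLDN7 were called higher (edgeR adjusted p = 0.0156 and 0.0444, log2 fold changes 0.46 and 0.43) and CDH1 lower (edgeR adjusted p = 0.0218, log2 fold change -0.54), and their part in the differences of the 5 genes was not tested. Over all tested genes 3.08% were called higher and 4.75% lower. Whether the marker calls held with a library left out is not given here. Fibroblast markers summed to 3.5 to 4.83 CPM in SETD8 libraries and 4.85 to 7.32 CPM in vector libraries, with COL1A2, DCN and PDGFRA at 0. Most of this was COL1A1, with 3.28 to 4.65 CPM in SETD8 libraries and 4.52 to 6.22 CPM in vector libraries. Markers of HEK293 and neural cells summed to 19.5 to 24.6 CPM in SETD8 libraries and 20.4 to 23.9 CPM in vector libraries. Most of that was GATA2 (means 16.4 and 16.2 CPM) and PAX2 (5.72 and 5.68 CPM). Immune markers summed to at most 0.477 CPM in SETD8 libraries and 1.05 CPM in vector libraries, with PTPRC and CD3E at 0. In bulk samples, more cells that express a gene and more RNA per cell cannot be told apart. The labels do not say whether replicates were separate cultures, and the p-values then measure only a spread that may be technical.

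RNF138 (ENSG00000134758) lies on chromosome 18 from 32091855 to 32131561 on the plus strand (GRCh38, GENCODE 29). SETD8 replicates 1, 2 and 3 had 52.2, 47.9 and 43.8 CPM, and vector replicates 1, 2 and 3 had 28.3, 28.2 and 26.2 CPM. Every SETD8 library lay above every vector library, and vector replicate 1 sat close to the other vector libraries. RNF138 averaged 48.0 ± 4.19 CPM in SETD8 cells and 27.6 ± 1.17 CPM in vector cells (SD, n = 3 each), a log2 fold change of 0.80 (SE 0.10) or 1.74-fold. The log2 fold change was 0.81 without vector replicate 1. Behind these levels stood 985, 926 and 753 counts in SETD8 libraries and 519, 565 and 455 counts in vector libraries.

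LYPLA1 (ENSG00000120992) lies on chromosome 8 from 54046367 to 54102017 on the minus strand. It had 97.1, 99.3 and 97.0 CPM in SETD8 replicates 1, 2 and 3, against 65.1, 62.1 and 64.0 CPM in vector replicates 1, 2 and 3. The libraries of each group were nearly level with one another, with no overlap between the groups. LYPLA1 averaged 97.8 ± 1.27 CPM in SETD8 cells and 63.7 ± 1.53 CPM in vector cells (SD, n = 3 each), a log2 fold change of 0.62 (SE 0.08) or 1.54-fold. This was the smallest fold among the 5 genes and the smallest spread, with a CV of 1.3% in SETD8 libraries and 2.39% in vector libraries. Without vector replicate 1 the log2 fold change was 0.63.

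ABHD8 (ENSG00000127220) lies on chromosome 19 from 17292131 to 17310236 on the minus strand and had the fewest reads of the 5 genes. SETD8 replicates 1, 2 and 3 had 229, 186 and 176 counts, and vector replicates 1, 2 and 3 had 95, 108 and 62 counts. As levels these were 12.1, 9.63 and 10.2 CPM in SETD8 libraries and 5.18, 5.39 and 3.57 CPM in vector libraries. The lowest SETD8 library still stood 1.79 times above the highest vector library, the widest gap among the 5 genes. ABHD8 averaged 10.7 ± 1.30 CPM in SETD8 cells and 4.71 ± 0.994 CPM in vector cells (SD, n = 3 each), a log2 fold change of 1.17 (SE 0.19) or 2.25-fold. Without vector replicate 1 the log2 fold change was 1.24.

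TMEM238 (ENSG00000233493) lies on the same chromosome from 55379245 to 55384598, also on the minus strand. Its levels were 41.4, 48.2 and 42.7 CPM in SETD8 replicates 1, 2 and 3, against 25.5, 27.5 and 15.0 CPM in vector replicates 1, 2 and 3. Vector replicate 3 lay well below the other vector libraries, and no vector library reached a SETD8 library. The means were 44.1 ± 3.63 CPM in SETD8 cells and 22.6 ± 6.71 CPM in vector cells (SD, n = 3 each), a log2 fold change of 0.96 (SE 0.18) or 1.94-fold. Leaving out vector replicate 3 gave the lowest log2 fold change, 0.74, and leaving out vector replicate 1 gave 1.04.

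KRTAP2-3 (ENSG00000212724) lies on chromosome 17 from 41059240 to 41060114 on the minus strand. SETD8 replicates 1, 2 and 3 had 157, 127 and 154 CPM, and vector replicates 1, 2 and 3 had 98.8, 52.1 and 49.7 CPM. Vector replicate 1 stood between the SETD8 libraries and the other vector libraries. On the log2 CPM scale it lay 63.2% of the way from the mean of vector replicates 2 and 3 to the SETD8 mean. On the same measure it stood at 29.2% for TMEM238, 18.6% for ABHD8, 7.27% for LYPLA1 and 7.03% for RNF138, and at a median of 40.2% over the genes called higher. KRTAP2-3 averaged 146 ± 16.5 CPM in SETD8 cells and 66.9 ± 27.7 CPM in vector cells (SD, n = 3 each), a log2 fold change of 1.13 (SE 0.26) or 2.18-fold. Without vector replicate 1 it was 1.52, or 2.86-fold.

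**Figure D1:**
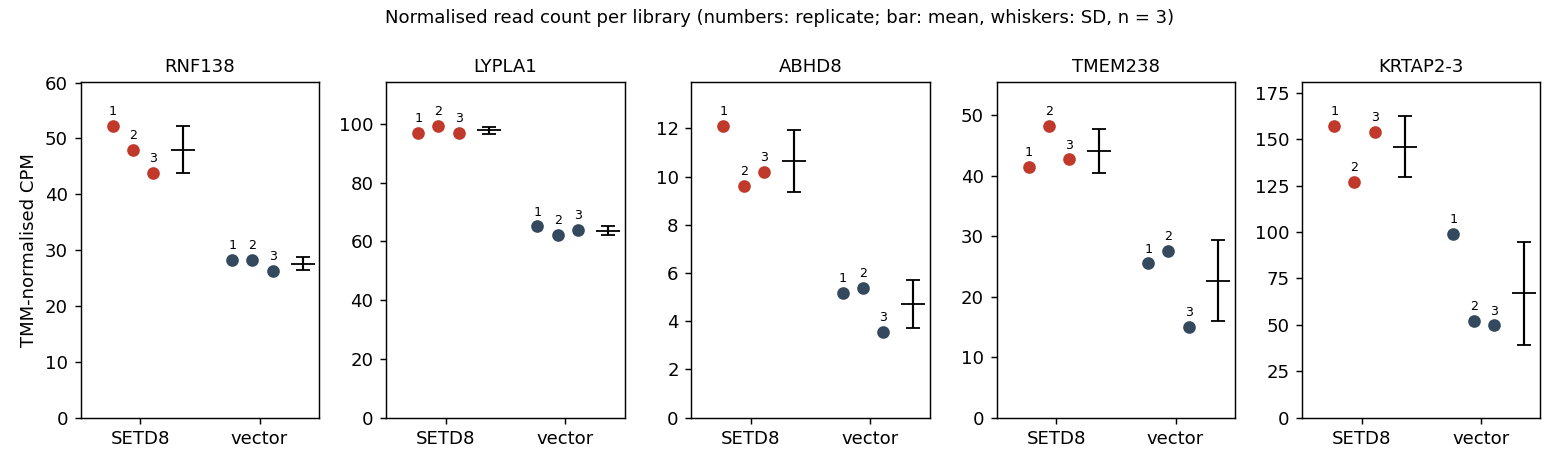
TMM-normalised CPM (vertical axis, linear from 0) of the 5 genes in each SETD8 and vector library. Points carry the replicate number, and the bar with whiskers beside them is the mean with its SD (n = 3). No vector library reaches a SETD8 library for any of the 5 genes, and vector replicate 1 of KRTAP2-3, at 98.8 CPM, comes nearest as a ratio, the lowest SETD8 library being 1.29 times as high.

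Per kilobase of the longest annotated transcript, the order of the 5 levels was led by KRTAP2-3, with 167 ± 18.8 CPM per kb in SETD8 cells and 76.4 ± 31.6 CPM per kb in vector cells (SD, n = 3 each). TMEM238 had 44.1 ± 3.63 CPM per kb in SETD8 cells and 22.6 ± 6.71 in vector cells. LYPLA1 had 37.8 ± 0.492 CPM per kb in SETD8 cells and 24.7 ± 0.59 in vector cells. TMEM238 and LYPLA1 thus changed places between the groups, and in vector cells they lay within the spread of TMEM238. RNF138 had 13.4 ± 1.17 CPM per kb in SETD8 cells and 7.72 ± 0.328 in vector cells. ABHD8 came last with 5.10 ± 0.624 CPM per kb in SETD8 cells and 2.26 ± 0.475 in vector cells. The median over all tested genes was 5.38 CPM per kb, so 4 of the 5 genes lay above it in both groups and ABHD8 below it.

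All 5 genes were called higher by edgeR's quasi-likelihood test at an adjusted p under 0.05, as were 3.08% of the tested genes. All 5 had groups that did not overlap with SETD8 higher, as had 14.4% of the tested genes. Since the genes were picked for this contrast, nothing is read from these counts. By log2 fold change ABHD8 held rank 62 of the tested genes, KRTAP2-3 rank 79, TMEM238 rank 153, RNF138 rank 295 and LYPLA1 rank 576. Among the 443 genes called higher, whose median log2 fold change was 0.56, the same genes held ranks 25, 28, 44, 79 and 167. The number of the 5 genes called depended on single libraries. It was 0 without SETD8 replicate 1, 3 without SETD8 replicate 2 or 3, 5 without vector replicate 1, and 4 without vector replicate 2 or 3. RNF138, LYPLA1 and ABHD8 were the ones called without SETD8 replicate 2 or 3, and KRTAP2-3 was the one not called without vector replicate 2 or 3. With all libraries but no filter on low counts, 4 were called, and KRTAP2-3 was again the one not called. Across all tested genes 1 to 1771 were called higher when 1 library was left out.

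**Figure D2:**
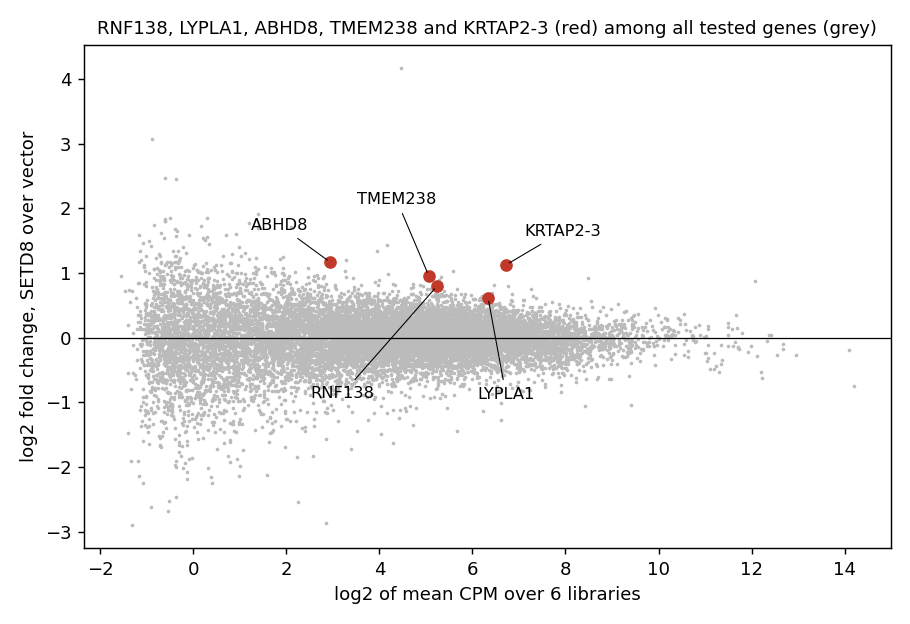
Log2 fold change, SETD8 over vector (vertical axis), against the log2 of the mean CPM over 6 libraries (horizontal axis) for the 14370 tested genes in grey, with the 5 genes in red. All 5 have positive fold changes, from rank 62 (ABHD8) to rank 576 (LYPLA1) of the tested genes. ABHD8 is at the lowest level and KRTAP2-3 at the highest.

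**Figure D3:**
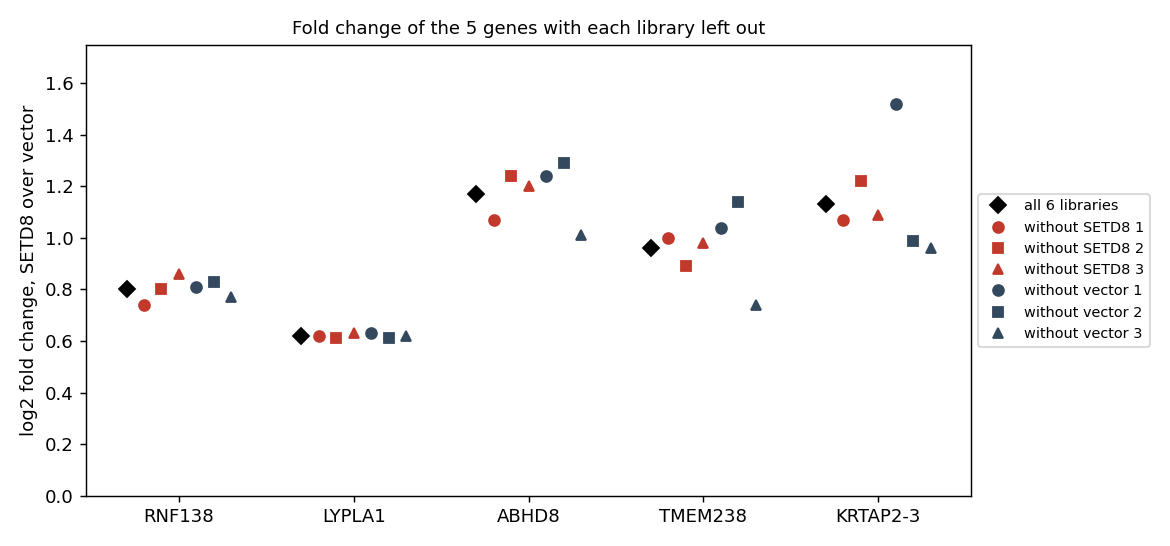
Log2 fold change, SETD8 over vector, of the 5 genes with all libraries and with each library left out in turn. LYPLA1 stays between 0.61 and 0.63, while KRTAP2-3 runs from 0.96 to 1.52, its highest value being the one without vector replicate 1.

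The fold changes themselves kept their sign whichever library was left out. RNF138 ranged from 0.74 to 0.86 on the log2 scale, LYPLA1 from 0.61 to 0.63, ABHD8 from 1.01 to 1.29, TMEM238 from 0.74 to 1.14 and KRTAP2-3 from 0.96 to 1.52. KRTAP2-3 and TMEM238, the 2 genes with the widest ranges, were also those with the most uneven vector libraries. Their CV in the vector group was 41.4% and 29.6%, against 21.1% for ABHD8, 4.24% for RNF138 and 2.39% for LYPLA1.

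The RefSeq promoter windows of 4 of the 5 genes, all but LYPLA1, are shown so that their make-up can be set side by side. Each is the 250 bases before the RefSeq start on GRCh38.p14, read 5′ to 3′ along the gene's strand. RNF138 is shown from chr18:32091624-32091873 (plus strand), ABHD8 from chr19:17303426-17303675 (minus strand), TMEM238 from chr19:55384293-55384542 (minus strand) and KRTAP2-3 from chr17:41060115-41060364 (minus strand). The RefSeq starts of RNF138, ABHD8 and TMEM238 differ from the outermost GENCODE starts. The ABHD8 and TMEM238 windows thus lie wholly inside the gene spans given above, and the RNF138 window partly. Capitals mark, on either strand, the letters TATAAA of a TATA box, CCAAT of the box named for them, GGGCGG known as the GC box, and CACGTG, an E-box.
RNF138: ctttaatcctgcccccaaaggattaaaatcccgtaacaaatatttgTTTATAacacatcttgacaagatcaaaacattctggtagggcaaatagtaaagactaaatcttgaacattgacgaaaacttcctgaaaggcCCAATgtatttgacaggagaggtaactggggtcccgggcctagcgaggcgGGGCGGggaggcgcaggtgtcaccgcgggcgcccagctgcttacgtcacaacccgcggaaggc
ABHD8: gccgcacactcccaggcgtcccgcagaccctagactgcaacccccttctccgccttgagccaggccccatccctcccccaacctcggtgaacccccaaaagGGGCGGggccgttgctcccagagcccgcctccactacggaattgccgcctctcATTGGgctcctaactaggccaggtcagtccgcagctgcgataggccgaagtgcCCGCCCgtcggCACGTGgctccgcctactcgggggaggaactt
TMEM238: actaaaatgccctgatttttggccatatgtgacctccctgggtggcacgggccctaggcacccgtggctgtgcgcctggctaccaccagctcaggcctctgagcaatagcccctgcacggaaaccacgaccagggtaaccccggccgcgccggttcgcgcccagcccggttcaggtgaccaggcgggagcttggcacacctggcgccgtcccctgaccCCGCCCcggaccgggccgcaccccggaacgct
KRTAP2-3: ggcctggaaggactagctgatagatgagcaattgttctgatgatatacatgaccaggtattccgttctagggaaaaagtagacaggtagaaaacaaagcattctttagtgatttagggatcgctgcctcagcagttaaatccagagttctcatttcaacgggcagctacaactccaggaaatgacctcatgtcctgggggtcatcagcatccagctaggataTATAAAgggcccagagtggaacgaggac

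The windows differ in make-up. Over 300 bases, which add 50 after the start, GC content was 53.3% for RNF138, 68.7% for ABHD8, 71.0% for TMEM238 and 47.3% for KRTAP2-3, against a median of 58.7% over 35116 RefSeq windows. With positions counted back from the start, the KRTAP2-3 window holds TATAAA at -28. RNF138 holds the same letters on the reverse strand at -204, and 11.5% of all windows hold them on either strand. GC boxes, found in 45.0% of all windows, stand at -63 in RNF138, at -149 and -43 in ABHD8 and at -32 in TMEM238. CCAAT, found in 34.6% of all windows, stands at -113 in RNF138 and at -96 in ABHD8. The E-box CACGTG, found in 7.26% of all windows, stands at -32 in ABHD8. The letters GGAATG, bound by the TEAD partners of YAP, are in 14.0% of all windows and in 0 of these 4. The same holds for TGANTCA of AP-1 (7.71% of all windows), CCGGAAG of ETS factors (10.3%), the palindromic NRF1 motif (1.24%) and AAGATGG of YY1 (5.84%). Both strands were searched for each motif, none of the matches overlap, and a match or its lack describes letters in these windows and not binding.

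The copies of KRTAP2-3 were KRTAP2-4, KRTAP2-2 and KRTAP2-1, which encode proteins of the same hair cortex family, and the pseudogene KRTAP2-5P. Along the KRTAP2-3 transcript, 39.7% of all 50-base windows and 34.0% of all 100-base windows were also found in another gene's transcript. With 100 bases, 34.0% were shared with KRTAP2-4, 26.2% with KRTAP2-1 and 25.1% with KRTAP2-2, so reads from these stretches cannot be placed by their sequence. Over the length of the local alignment, with gaps counted as differences, identity to KRTAP2-3 was 77.7% for KRTAP2-4, 75.4% for KRTAP2-2 and 79.7% for KRTAP2-1. Identity over the paired bases alone was therefore higher wherever the alignment held gaps. The windows before the starts of KRTAP2-4 (chr17:41065880-41066129, minus strand) and KRTAP2-2 (chr17:41055231-41055480, minus strand) hold TATAAA as well, at -58 and -73, and they are shown beside that of KRTAP2-3 for this. KRTAP2-1, the copy with hardly any counts, holds TATAAA at -43. Capitals mark TATAAA and, in KRTAP2-4, CCAAT on the reverse strand.
KRTAP2-4: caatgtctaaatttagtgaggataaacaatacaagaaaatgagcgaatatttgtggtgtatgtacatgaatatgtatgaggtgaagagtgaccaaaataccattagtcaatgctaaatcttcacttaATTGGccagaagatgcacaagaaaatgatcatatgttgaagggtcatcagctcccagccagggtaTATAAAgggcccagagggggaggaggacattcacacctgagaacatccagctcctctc
KRTAP2-2: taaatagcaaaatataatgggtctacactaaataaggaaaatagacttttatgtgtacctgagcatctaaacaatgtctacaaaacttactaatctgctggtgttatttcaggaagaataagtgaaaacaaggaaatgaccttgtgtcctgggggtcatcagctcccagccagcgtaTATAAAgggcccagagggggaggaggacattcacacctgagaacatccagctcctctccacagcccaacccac

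KRTAP2-3 held most of the counts of this group in every library, with 87.9%, 93.5% and 90.8% in SETD8 replicates 1, 2 and 3 and 87.0%, 90.2% and 90.7% in vector replicates 1, 2 and 3. KRTAP2-4 had 15.6, 7.82 and 14.0 CPM in SETD8 replicates 1, 2 and 3, against 13.4, 5.09 and 4.09 CPM in vector replicates 1, 2 and 3. Its groups overlapped, since vector replicate 1 lay above SETD8 replicate 2, and its log2 fold change of 0.73 (SE 0.45) did not pass (edgeR adjusted p = 0.349). It was 1.43 without vector replicate 1 (edgeR adjusted p = 4.5e-04), in a fit that called 1771 genes higher. KRTAP2-2 had 5.99, 0.932 and 1.69 CPM in SETD8 libraries and 1.36, 0.599 and 0.864 CPM in vector libraries. SETD8 replicate 1 alone was high, and the log2 fold change, 1.61 with an SE of 0.61 (edgeR adjusted p = 0.126), was 0.47 without it. KRTAP2-1 had at most 2 counts and KRTAP2-5P at most 4 counts in any library. Summing KRTAP2-3 with its copies gave a log2 fold change of 1.10, against 1.13 for KRTAP2-3 alone, and KRTAP2-3 was not among the calls with the copies summed. The sources used here do not say how reads were split between the copies, so the level of each copy is uncertain.

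The other 4 genes shared less sequence. RNF138 shared 9.29% of its 50-base windows with other transcripts, LYPLA1 7.89%, ABHD8 8.62% and TMEM238 0%. The processed pseudogenes RNF138P1, RNF138P2, LYPLA1P1 and LYPLA1P2 had 0 counts in all 6 libraries, as had TMEM238L, a gene related to TMEM238 by name. LYPLA1P3, whose transcript is 97.6% identical to LYPLA1 over the local alignment (gaps counted as differences), had 0.371, 0.518 and 0.582 CPM in SETD8 libraries and 0.600, 0.948 and 0.980 CPM in vector libraries. These levels lay the other way from those of LYPLA1 and stayed under 1 CPM in every library, and the log2 fold change of -0.78 did not pass (edgeR adjusted p = 0.293).

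Keratin-associated proteins and hair keratins were followed because KRTAP2-3 works with them in hair. Of the other 32 keratin-associated protein genes of chromosome 17, 12 had 0 counts in all libraries, 17 had counts but were too low to test and 3 were tested, with 0 called by edgeR. At an unadjusted p under 0.05, 2 were higher, while DESeq2 called 2 (KRTAP2-2 and KRTAP3-1) and limma-voom 1 (KRTAP3-1). KRTAP3-1, the nearest tested gene beyond the copies, had 5.46, 4.04 and 6.51 CPM in SETD8 replicates 1, 2 and 3, against 3.82, 1.90 and 0.98 CPM in vector replicates 1, 2 and 3. Its groups did not overlap, although vector replicate 1 came within reach of the lowest SETD8 library, and its log2 fold change was 1.25 (SE 0.37, edgeR adjusted p = 0.0561). Without vector replicate 1 it was 1.86 (edgeR adjusted p = 2.82e-04), in the fit that called 1771 genes higher. Of 17 hair keratins 7 were tested and 0 were called by edgeR, with a median log2 fold change of 0.12. Of these 1, KRT34, had an unadjusted p under 0.05 and was called by DESeq2 and by limma-voom. KRT34 is an acidic hair keratin named here after its values were seen. It had 23.9, 20.7 and 21.8 CPM in SETD8 libraries and 15.2, 5.84 and 5.07 CPM in vector libraries. As for KRTAP2-3, vector replicate 1 lay between the SETD8 libraries and the other vector libraries. Its log2 fold change was 1.35 (SE 0.36, edgeR adjusted p = 0.0560), and without vector replicate 1 it was 2.01 (edgeR adjusted p = 4.57e-08).

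Markers of hair follicle and skin keratinocytes summed to 52.7 to 66.9 CPM in SETD8 libraries and 38.8 to 52.2 CPM in vector libraries. Most of this was KRT10, a keratin of differentiating epidermis, with 35.1, 51.2 and 46.8 CPM in SETD8 libraries and 34.4, 26.5 and 24.1 CPM in vector libraries (log2 fold change 0.65, edgeR adjusted p = 0.0268, and 0.81 without vector replicate 1). It was the 1 marker called among 4 tested of 9, against 3.08% of all tested genes called higher, and TCHHL1 was at 0. The part of these markers in the KRTAP2-3 difference was not tested.

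**Figure D4:**
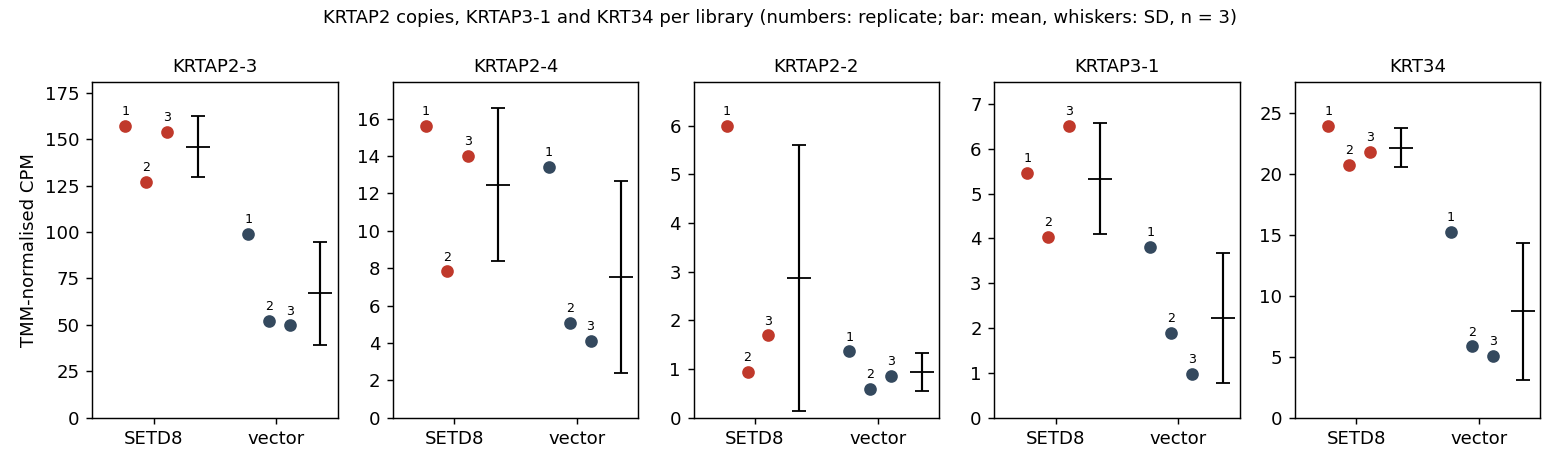
TMM-normalised CPM (vertical axes, each from 0 with its own scale) of KRTAP2-3, its copies KRTAP2-4 and KRTAP2-2, KRTAP3-1 and KRT34 in each SETD8 and vector library. Points carry the replicate number and bars with whiskers are means with SD (n = 3). In each panel vector replicate 1 is the highest vector library, and KRTAP2-2 is led by SETD8 replicate 1 at 5.99 CPM.

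The neighbours of the 5 genes were compared as well. With 2 tested genes on either side of each, KRTAP2-2 and KRTAP2-4 included, 0 of 20 passed edgeR's test. At an unadjusted p under 0.05, 4 were higher and 0 lower, with no share over all tested genes to set beside them. The adjusted calls were 3 higher with DESeq2 (MRPL34, KRTAP3-1 and KRTAP2-2) and 2 with limma-voom (MRPL34 and KRTAP3-1). Over all genes DESeq2 called 739 higher and limma-voom 469. Without vector replicate 1, 5 neighbours were called higher by edgeR, KRTAP2-4, KRTAP3-1 and the ABHD8 neighbours MRPL34, BABAM1 and DDA1, and 1 lower, IL11. Over all genes that fit called 1771 higher and 1738 lower, and whether neighbours moved with the 5 genes was not tested. In that fit BABAM1 stood at 0.48 (edgeR adjusted p = 0.0155), against 0.30 with all libraries, and DDA1 at 0.40 (edgeR adjusted p = 0.00459), against 0.22. ANKLE1, the other neighbour of ABHD8, stood at 0.08 (edgeR adjusted p = 0.797). Next to RNF138, RNF125 had a log2 fold change of -0.05 (edgeR adjusted p = 0.799) and GAREM1, whose body overlaps that of RNF138, one of -0.19 (edgeR adjusted p = 0.602). RNF125 belongs to the same RING-UIM family as RNF138. Next to LYPLA1, TCEA1 had 0.24 (edgeR adjusted p = 0.103) and MRPL15 0.13 (edgeR adjusted p = 0.448). Next to TMEM238, RPL28, a ribosomal protein gene 746 bases away, had 0.17 (edgeR adjusted p = 0.396). IL11, a cytokine gene on the other side, had -0.91 (edgeR adjusted p = 0.237), and -1.20 without vector replicate 1 (edgeR adjusted p = 0.0412).

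ABHD8 and MRPL34, a mitochondrial ribosomal protein gene on the opposite strand, share 223 exon bases, which are 10.1% of the exon bases of ABHD8. MRPL34 had 52.3, 58.6 and 56.2 CPM in SETD8 replicates 1, 2 and 3, against 52.5, 32.4 and 29.0 CPM in vector replicates 1, 2 and 3. Vector replicate 1 was level with SETD8 replicate 1, so the groups overlapped, whereas those of ABHD8 did not. The log2 fold change of MRPL34 was 0.55 (SE 0.18, edgeR adjusted p = 0.0797), and without vector replicate 1 it was 0.85 (edgeR adjusted p = 1.41e-05). The library kit marks strand, but no source used here says whether the counting used it, so reads of ABHD8 and MRPL34 in the shared bases cannot be told apart. RNF138 likewise shares 265 exon bases, 6.98% of its own, with an antisense gene (ENSG00000265008).

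**Figure D5:**
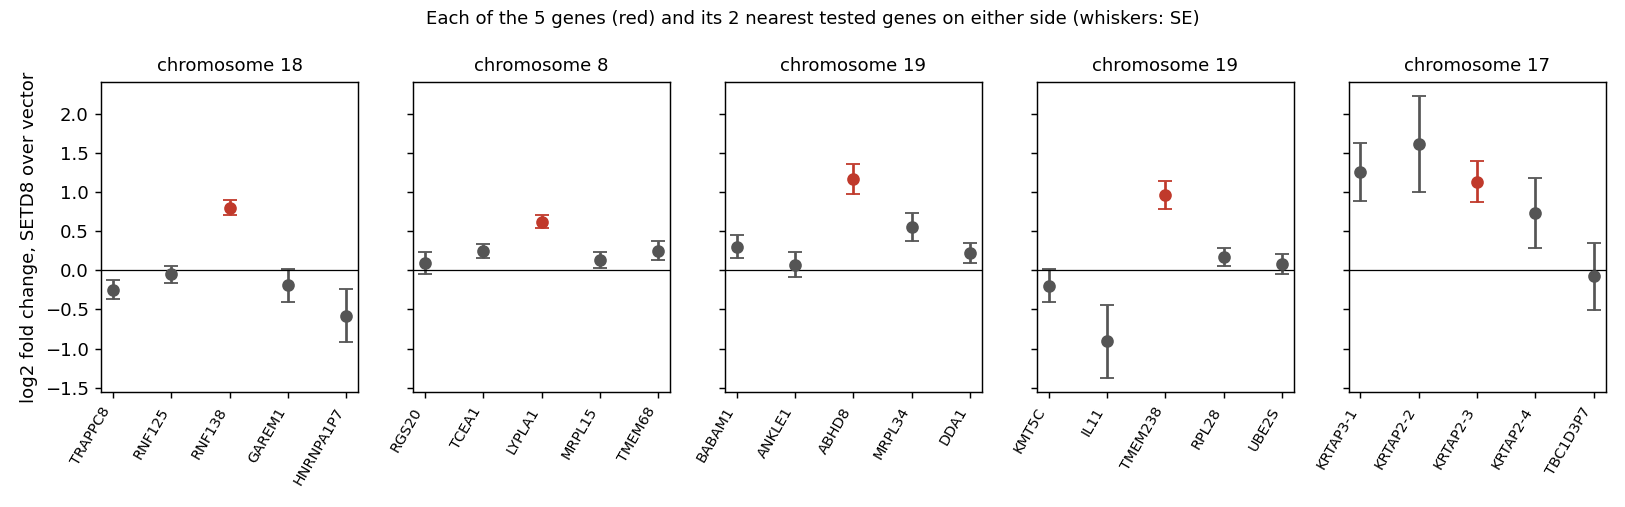
Log2 fold change, SETD8 over vector, with its SE (whiskers) for each of the 5 genes (red) and its 2 nearest tested genes on either side. The red points stand at 0.62 to 1.17, and outside the KRTAP cluster the highest neighbour is MRPL34 at 0.55.

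Genes that work with the 5 or belong to their families were followed as lists. Of 89 tested genes other than the 5, 5 were called higher (5.62%, against 3.08% of all tested genes) and 0 lower (against 4.75%), with a median log2 fold change of 0.03, against 0.00 over all tested genes. Groups did not overlap for 16 with SETD8 higher and 4 with SETD8 lower, against 14.4% and 15.9% of all tested genes. At an unadjusted p under 0.05, 14 were higher and 3 lower. No share over all tested genes is given for the unadjusted p, here or for single lists, so nothing is read from those counts. Of the listed genes DESeq2 called 9 higher and 2 lower, against 739 and 907 over all genes. Limma-voom called 7 higher and 0 lower, against 469 and 621. Without vector replicate 1 edgeR called 13 higher and 3 lower, against 1771 and 1738.

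None of the 3 other RING-UIM ligases passed by edgeR, DESeq2 or limma-voom, although 1 had an unadjusted p under 0.05, with log2 fold changes of 0.07 for RNF114, -0.05 for RNF125 and 0.37 for RNF166 (edgeR adjusted p = 0.120 for RNF166, the lowest of the 3). Among 26 tested genes of DNA end resection and homologous recombination, 1 was called higher and 0 lower, with a median log2 fold change of -0.13. That 1 was RAD51C, a homologous recombination gene, at 0.37 (SE 0.11, edgeR adjusted p = 0.0493), a call kept in 1 of the 6 fits with a library left out. It was also lost with the length correction (edgeR adjusted p = 0.0574). The transcripts of the RNF138 substrates did not pass, RBBP8 standing at -0.15 (edgeR adjusted p = 0.407) and XRCC5 at -0.02 (edgeR adjusted p = 0.930). Ubiquitylation of their proteins was not measured.

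Of 7 genes listed for the UBE2D and UBE2N classes of ubiquitin-conjugating enzymes, which work with RING ligases, 2 were called higher. UBE2D1 had 15.8, 19.0 and 13.9 CPM in SETD8 libraries and 8.99, 11.7 and 9.57 CPM in vector libraries (edgeR adjusted p = 0.0223, log2 fold change 0.69 with an SE of 0.16). UBE2V2, a partner of UBE2N, had 54.5, 46.0 and 45.7 CPM in SETD8 libraries and 40.1, 33.5 and 37.0 CPM in vector libraries (edgeR adjusted p = 0.0426, log2 fold change 0.40 with an SE of 0.11). The SETD8 libraries lay above the vector libraries for both, and both calls were kept in 2 of the 6 fits with a library left out. That of UBE2V2 was also lost with the GC correction (edgeR adjusted p = 0.105).

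For LYPLA1, 0 of 8 other protein depalmitoylases passed by edgeR, DESeq2 or limma-voom and 2 were higher at an unadjusted p under 0.05, with a median log2 fold change of 0.15. LYPLA2, the closest relative of LYPLA1, stood at 0.31 (edgeR adjusted p = 0.123) and LYPLAL1 at 0.36 (edgeR adjusted p = 0.199). On the opposing side, 1 of 22 tested genes of the ZDHHC palmitoyltransferase list was called higher and 0 lower, with a median of 0.01. It was SELENOK, a selenoprotein cofactor of ZDHHC6, with 30.7, 30.7 and 29.7 CPM in SETD8 libraries and 25.0, 21.5 and 20.9 CPM in vector libraries (edgeR adjusted p = 0.0333, log2 fold change 0.44 with an SE of 0.11). Its SETD8 libraries were nearly level and above all vector libraries, and the call was kept in 2 of the 6 fits with a library left out. It was also lost with the length correction (edgeR adjusted p = 0.0878).

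Of 17 tested relatives of ABHD8, 1 was called higher and 0 lower by edgeR, with a median log2 fold change of 0.06. DESeq2 also called ABHD14B and ABHD2, and limma-voom neither. ABHD4, a lipase of N-acyl phospholipids, had 21.5, 16.9 and 21.3 CPM in SETD8 libraries and 10.8, 11.4 and 11.8 CPM in vector libraries. The vector libraries were close together and below every SETD8 library, and the log2 fold change was 0.81 (SE 0.14, edgeR adjusted p = 0.00699). The call was kept in 4 of the 6 fits with a library left out, the highest adjusted p in edgeR being 0.0556. Without vector replicate 1 the 5 called list genes kept their calls in edgeR, with log2 fold changes of 0.78 for ABHD4, 0.41 for RAD51C, 0.52 for SELENOK, 0.61 for UBE2D1 and 0.47 for UBE2V2.

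The genes whose log2 CPM followed each of the 5 most closely over the 6 libraries were sought among 10564 genes with a mean of at least 5 CPM. The measure was Pearson's r, given as a description, since all points share the same 6 libraries and the group difference. For RNF138 they were TCP11L2 (r = 0.995), TAF7 (0.994), MRPL42 (0.992), TTC9 (0.992) and MARCHF5 (0.989). LYPLA1 was followed by OCIAD1 (r = 0.998), NBR1 (0.998), CARNMT1 (0.997), CLDN12 (0.996) and EIF3J-DT (0.994). ABHD8 was nearest to SVIP (r = 0.997), DTNBP1 (0.996), ZFTRAF1 (0.996), POLR2K (0.993) and PI4K2B (0.992). The genes closest to TMEM238 were CEBPA (r = 0.996), PPCS (0.995), SHFL (0.993), C1orf159 (0.992) and SNHG32 (0.992). KRTAP2-3 had CEBPZOS (r = 0.998), BTG3 (0.997), LYSMD2 (0.997), MAL2 (0.996) and KCNH2 (0.996). No gene stood on the list of more than 1 of the 5. An r above 0.95 was reached by 327 genes for KRTAP2-3, 170 for ABHD8, 143 for LYPLA1, 133 for RNF138 and 127 for TMEM238.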

How the data were processed

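Poly(A)-selected RNA of 6 HCT116 samples was sequenced after TRIzol extraction, from strand-marking TruSeq libraries, per the labels' protocols. The deposited table gives raw read counts as whole numbers for 58735 Ensembl IDs. Tools listed without role or version in the submitters' processing notes are STAR, HISAT2, HTSeq and featureCounts, with the builds hg38 and GRCh38. The roles of aligner and counter, the annotation and the strand setting were not given in the sources used here. Every one of the 58735 IDs was found in GENCODE 29, and 58207 had a current symbol. Columns named NC were taken as the vector group, the only group beside SETD8, and 0 columns belonged to other samples.

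Genes were filtered with filterByExpr (14370 tested, 44365 dropped), scaled by TMM and compared without covariates in edgeR 4.0.16 (R 4.3.3, limma 3.58.1) by its robust quasi-likelihood test, two-sided, and p-values were adjusted by Benjamini-Hochberg over all tested genes, with a threshold of 0.05. The steps were also run on simulated counts, in which no library was made to stand apart from its group as vector replicate 1 did. That run therefore does not cover the uneven vector libraries. CPM values use TMM factors and, on the log2 scale, a prior count of 2, and CPM per kb uses the longest GENCODE transcript. Copies were sought as shared windows of 50 and 100 bases between transcripts. Promoter windows are from RefSeq (GRCh38.p14), and TATAAA was added to the motifs after the letters were seen. Named genes were the 5 genes, KMT5A, their copies, the 2 tested neighbours on either side, called list members, fixed partners of each gene and the 5 most alike genes. The 5 genes and the lists were chosen with earlier results of these data known. Alternatives were DESeq2 1.42.0, limma-voom, other scalings and filters, GC and length corrections (lowess span 0.3), a replicate block, summed KRTAP2 copies and leaving out each library.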

Additional observations from a re-analysis of the deposited data

How the results depend on the processing

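The log2 fold changes of the 5 genes were positive under every alternative run. LYPLA1 moved by more than its spread between replicates with the GC correction (0.57), the length correction (0.56) and library totals (0.66), against 0.62. Of the 5 genes, 0 to 5 were called with 1 library left out, and 4, all but KRTAP2-3, with no low-count filter or with the KRTAP2 copies summed. Genes called higher numbered 443, against 739 with DESeq2, 792 with library totals, 949 with no low-count filter and 1 to 1771 with 1 library left out. Genes called lower numbered 682, against 1051 with no filter and 10 to 1738 with 1 library left out. Library totals gave 792 higher and 505 lower genes. Listed genes called higher numbered 5, against 9 with DESeq2, 3 with the length correction, 8 with library totals, 10 with no filter and 0 to 13 with 1 library left out. Listed genes called lower numbered 0, against 2 with DESeq2, 1 with the GC correction, 2 with no filter and 0 to 3 with 1 library left out.

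Named genes near 0 changed sign. With the length correction RNF125 was 0.05, RGS20 -0.01 and MRPL15 -0.05, and with library totals XRCC5 was 0.03. With 1 library left out RNF125 ran from -0.13 to 0.03, GAREM1 from -0.34 to 0.09, KMT5C from -0.36 to 0.04, UBE2S from -0.05 to 0.24, TBC1D3P7 from -0.44 to 0.35, XRCC5 from -0.04 to 0.04 and XRCC6 from -0.04 to 0.14. The causes of these changes were not tested, beyond the fewer samples of a fit with a library left out.

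The replicate numbers did not pair the libraries: deviations of same-numbered SETD8 and vector libraries correlated at 0.0247, 0.00778 and -0.0637. With the replicate block 532 genes were higher and 645 lower, and RNF138, LYPLA1, ABHD8, TMEM238 and KRTAP2-3 stood at 0.80, 0.62, 1.18, 1.00 and 1.19. Listed genes called lower numbered 1 with the block. RAD51C lost its call with the block (edgeR adjusted p = 0.0665) and with the block and the GC correction (0.0533), and UBE2V2 with the block and the GC correction (0.112). With the block and the GC correction LYPLA1 was 0.57, and 9 listed genes were higher and 2 lower. At these depths ABHD8, with 62 to 229 counts, carried the largest counting error of the 5 genes.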
